A study of Mus musculus with 3 samples.

Results

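Calcineurin and the NFAT transcription factors link calcium entry to gene transcription in T cells. Their 10 genes are described here in thymocytes, which are T cells developing in the thymus, of 3 wild-type mice. The set holds the catalytic subunit genes Ppp3ca, Ppp3cb and Ppp3cc, the regulatory subunit gene Ppp3r1, the calcineurin regulator gene Rcan1, and the factor genes Nfatc1, Nfatc2, Nfatc3, Nfatc4 and Nfat5. A member was taken from probe sets that the platform annotation assigns to its symbol alone, and each of the 10 genes had 1 such probe set, among 19938 genes named in this way. No probe set that names several genes included a member. The rule uses gene symbols and no measured value.

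The arrays belong to a study of lymphomas in mice labelled tPTEN-/-, and the tumour arrays were not used here. The 3 mice, numbered 92, 103 and 106, carry the genotype wt on a mixed FVB and C57BL6 background. The labels state neither age nor sex, record an RNA amount of 0.3 µg and an integrity number (RIN) of 3 for every sample, and enter T cell lymphoma as disease state for these wild-type animals as well. Levels are log2 values of Affymetrix MoGene 1.0 ST arrays, with array medians between 6.70 and 6.72. Whole thymocytes were measured in bulk, so fewer cells of a type and less RNA per cell cannot be told apart. All 11 measured thymocyte markers were above background on every array, beside 61.8% of all named genes. Among them are Cd3d, Cd3e and Cd3g, chains of the CD3 complex. With 3 arrays precision is limited, and nothing beyond the mouse numbers says how the samples were taken, so that a p-value here reflects only how these 3 samples spread, which may be technical.

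In a resting T cell, NFATc proteins are phosphorylated and held in the cytoplasm. Antigen receptor signalling raises cytosolic calcium, calmodulin then activates calcineurin, and calcineurin removes the phosphates so that NFATc proteins enter the nucleus. Kinases such as GSK3 and casein kinase 1 reverse the step, and RCAN1 binds and restrains calcineurin. NFAT5 shares the DNA-binding domain of the family but responds to osmotic stress and is not a calcineurin substrate. In the thymus the pathway takes part in early thymocyte development and in positive selection.

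Rcan1 is shown first by sequence, because RefSeq lists 2 starts for the gene, 66091 bases apart. Its probe set is annotated to 2 RefSeq mRNAs, which were not matched to the starts, so its array level is assigned to neither start. The internal start is known from other work to be induced by calcineurin and NFAT. The 250 bases before each start are printed 5′ to 3′ on the minus strand of GRCm38.p6, with matches to the NFAT core GGAAA, or to TTTCC where the core lies on the opposite strand, in capitals. The upstream start lies after chr16:92466170-92466419 and the internal start after chr16:92400079-92400328.
Rcan1, before the upstream start: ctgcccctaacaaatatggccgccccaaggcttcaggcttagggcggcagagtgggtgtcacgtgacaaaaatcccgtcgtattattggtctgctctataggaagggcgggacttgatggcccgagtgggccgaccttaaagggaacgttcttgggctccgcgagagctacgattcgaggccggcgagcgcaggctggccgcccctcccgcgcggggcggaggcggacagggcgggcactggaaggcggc
Rcan1, before the internal start: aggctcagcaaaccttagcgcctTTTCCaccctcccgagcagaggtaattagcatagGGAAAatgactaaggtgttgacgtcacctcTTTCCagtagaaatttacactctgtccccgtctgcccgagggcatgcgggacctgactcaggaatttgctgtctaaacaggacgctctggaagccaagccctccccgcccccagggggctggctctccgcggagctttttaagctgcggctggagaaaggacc

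The window before the internal start held 3 core matches, and the window before the upstream start held 0. The core is short, and 55.6% of all 32851 RefSeq windows of this length held at least 1 match on either strand, while 6.4% held 3 or more. The search covered 10 windows of 7 members, and 7 windows held the core. Ppp3ca and Ppp3cc had no window, and Nfatc1 was left out of the search. The windows with 3 matches belonged to Nfatc2, Nfatc4, Ppp3cb and the internal start of Rcan1. A match describes letters and does not show that a factor binds there.

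A gene counted as above background when its level exceeded the 95th percentile of 1207 receptor genes of the olfactory, vomeronasal and trace amine families, whose normal site of transcription is the nasal epithelium. The threshold was 5.91 for mouse 92, 6.10 for mouse 103 and 6.00 for mouse 106. By this rule 9 of the 10 genes were above background on each array, beside 61.8% of all named genes. Nfatc4 was the exception. Probes differ in affinity, so levels of different genes are not ranked against each other here.

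**Figure D1:**
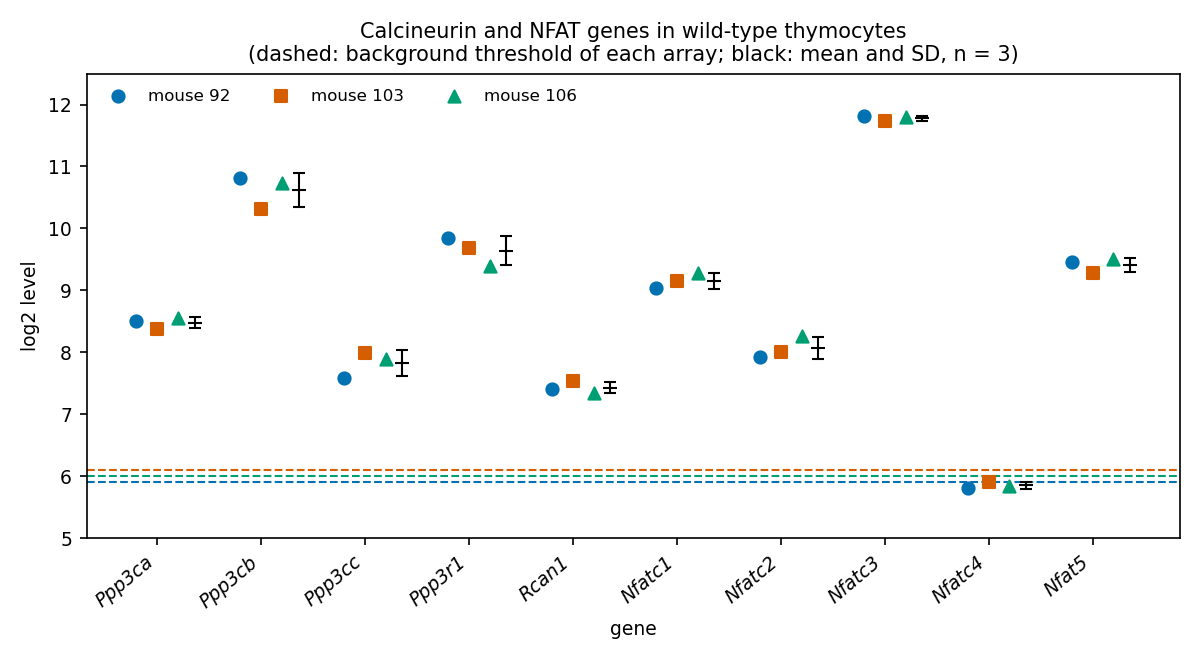
Log2 level of each gene (y axis) in mice 92, 103 and 106 (coloured symbols), with the mean and SD over 3 mice in black and the background threshold of each array as a dashed line. The 3 symbols of Nfatc4 lie below the threshold of their own array, and all other genes lie above the 3 lines.

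The catalytic subunits carry the phosphatase site of calcineurin. Ppp3cb, the beta isoform, measured 10.82 in mouse 92, 10.32 in mouse 103 and 10.73 in mouse 106 on the log2 scale, a mean of 10.62 ± 0.27 (SD, n = 3). Mouse 103 was the low array, and the range of 0.50 corresponds to 1.41-fold. Ppp3ca, the alpha isoform, had log2 levels of 8.51, 8.38 and 8.56, a mean of 8.48 ± 0.09 (SD, n = 3). Mouse 103 was again lowest, within a range of 0.18. Ppp3cc, the gamma isoform, which is also known from testis, had log2 levels of 7.59, 7.99 and 7.89, a mean of 7.82 ± 0.21 (SD, n = 3). Here mouse 92 was lowest and mouse 103 highest, with a range of 1.32-fold.

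Ppp3r1 encodes the calcium-binding regulatory subunit with which each catalytic isoform pairs. Its log2 levels were 9.84, 9.69 and 9.39 in mice 92, 103 and 106, a mean of 9.64 ± 0.23 (SD, n = 3). Mouse 106 was the low array, 0.46 below mouse 92. Rcan1, the regulator and known transcriptional target of the pathway, had log2 levels of 7.41, 7.54 and 7.35, a mean of 7.43 ± 0.09 (SD, n = 3). Every array lay above its threshold, by 1.50, 1.44 and 1.35 on the log2 scale. The values of Rcan1 spanned 1.14-fold.

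Among the calcineurin-dependent factors, Nfatc3, which is known for its part in thymocyte selection and survival, measured 11.82, 11.74 and 11.80 on the log2 scale in the same order of animals (92, 103, 106). Its mean was 11.78 ± 0.04 (SD, n = 3), and a range of 1.06-fold was the narrowest of the 10 genes. Nfatc1, which is used early in thymocyte development and also in activated T and B cells, had log2 levels of 9.03, 9.15 and 9.28, a mean of 9.15 ± 0.13 (SD, n = 3). Nfatc2, the factor long studied in mature T cells, had log2 levels of 7.92, 8.01 and 8.27, a mean of 8.07 ± 0.18 (SD, n = 3). Both genes were lowest in mouse 92 and highest in mouse 106, by 0.25 for Nfatc1 and 0.35 for Nfatc2. The probe set of Nfatc2 is annotated to 16 RefSeq mRNAs and that of Nfatc1 to 6, so isoforms that differ in their ends were not told apart.

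Nfatc4, which is better known from neurons and the heart, measured 5.80, 5.91 and 5.84 on the log2 scale in mouse 92, 103 and 106. Each value lay under the threshold of its own array, by 0.12, 0.19 and 0.16, so these values give no more than an upper limit. Nfat5, the osmotic stress factor, had log2 levels of 9.45, 9.28 and 9.50, a mean of 9.41 ± 0.11 (SD, n = 3). Mouse 103 was lowest by a small margin, in a range of 1.16-fold.

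**Figure D2:**
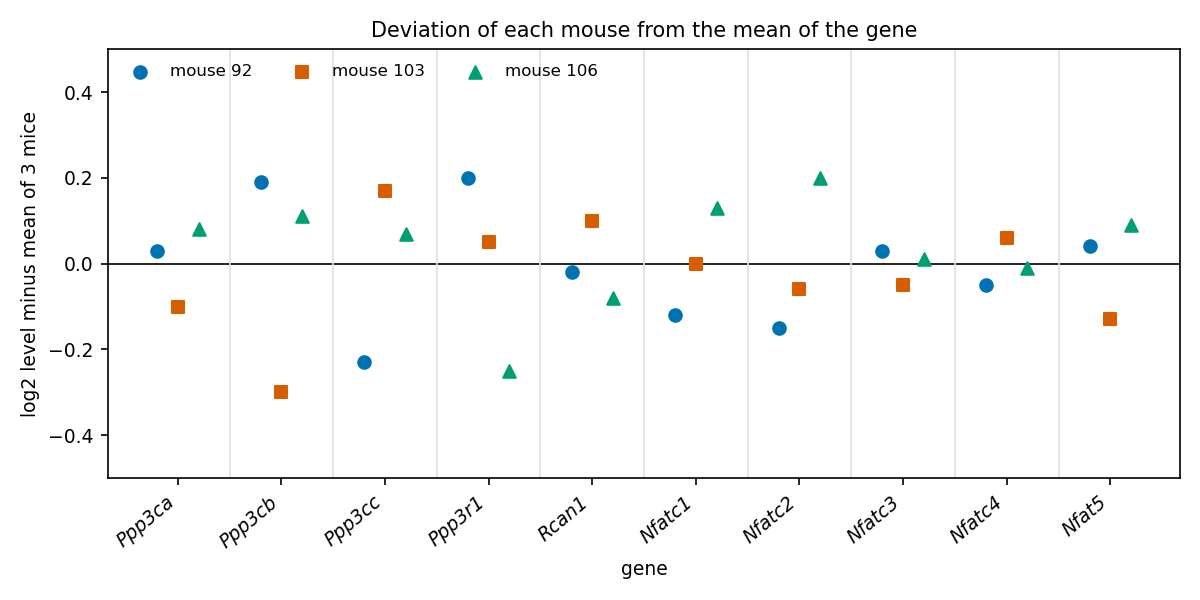
Deviation of each mouse from the mean of the gene on the log2 scale (y axis) for the 10 genes (x axis), with mice 92, 103 and 106 as coloured symbols. Deviations run from -0.30 for Ppp3cb in mouse 103 to 0.20 for Ppp3r1 in mouse 92 and Nfatc2 in mouse 106, and no mouse is low or high throughout.

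The order of the mice was mixed. Of the 9 genes above background, 4 were lowest on the array of mouse 103 (Ppp3ca, Ppp3cb, Nfatc3 and Nfat5), where 29.2% of all genes above background were lowest. Mouse 92 was lowest for 3 (Ppp3cc, Nfatc1 and Nfatc2), beside 34.5% of all such genes. Mouse 106 was highest for 4 (Ppp3ca, Nfatc1, Nfatc2 and Nfat5), beside 23.7%. After quantile or cyclic loess normalisation Nfatc3 moved to being highest in mouse 106 as well, a shift within its range of 0.08. The median deviation of the 9 genes was 0.03, -0.05 and 0.08 in mice 92, 103 and 106, and that of all genes above background was 0.01, 0.01 and -0.02.

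Whether the spread of a gene between mice exceeded that of other genes at its level was asked with limma, by setting its variance against a prior variance fitted across 13314 genes. Of the 9 genes tested, 0 varied (adjusted p from 0.996 to 0.998, limma with Benjamini-Hochberg adjustment), and 0 had an unadjusted p under 0.05. Among all genes tested 0.225% varied, or 30 genes, and 645 had an unadjusted p under 0.05. Ppp3cb had the lowest unadjusted p of the members, 0.0670 (limma, n = 3), with a variance 3.55 times the prior. Ppp3r1 followed at 2.57 times and Ppp3cc at 1.87 times, and Nfatc3 stood at 0.0955 times. The SD of the 30 varying genes was at least 0.76, against 0.27 for Ppp3cb, so that smaller differences between mice were not called at this number of arrays. Without mouse 92, 103 or 106, limma called 58, 48 and 84 genes, with 0 members in each case. Ppp3cb had an unadjusted p of 0.0188 without mouse 92 (adjusted p = 0.642, limma) and of 0.0284 without mouse 106 (adjusted p = 0.770, limma). Without mouse 103 its SD was 0.06, so that its spread came mainly from that array, and Ppp3r1 had the lowest unadjusted p of the members, 0.0660 (limma).

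**Figure D3:**
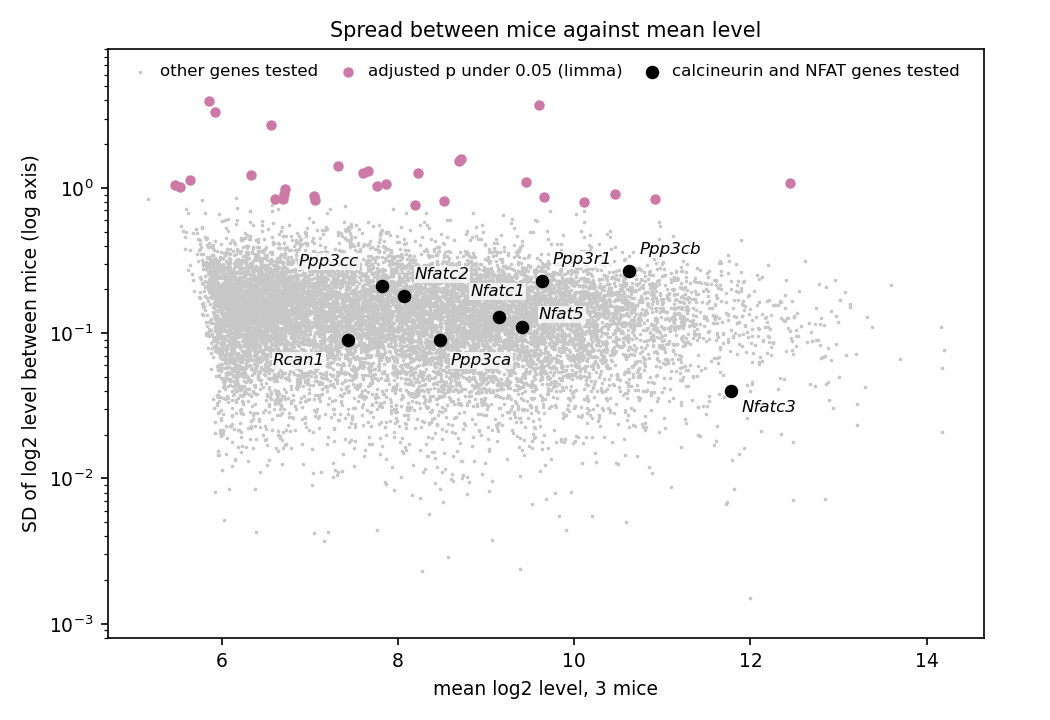
SD between the 3 mice (y axis, log scale) against mean log2 level (x axis) for the 13314 genes tested, with the 30 genes of adjusted p under 0.05 in pink and the 9 tested calcineurin and NFAT genes in black. The members lie between an SD of 0.04 for Nfatc3 and 0.27 for Ppp3cb, inside the cloud of other genes and below all pink points.

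The median SD was 0.13 for the 9 genes and 0.13 for all genes above background. The SD over genes of the difference between mice 92 and 103 was 0.25 for the 9 genes and 0.27 for all genes above background. It was 0.25 and 0.25 between mice 92 and 106, and 0.23 and 0.21 between mice 103 and 106. Between mice 92 and 103, 7 of the 9 genes differed by less than 0.25 on the log2 scale, and Ppp3cb differed most, by 0.50. Between mice 92 and 106 the number was 5, with Ppp3r1 the most different. Mice 103 and 106 had 6 genes under this limit, with Ppp3cb again the most different, by 0.41.

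Genes that raise the calcium signal before calcineurin were above background in 8 of 8 measured cases, beside 61.8% of all named genes. Of these 8, 0 varied in limma. The share of all genes tested was 0.225%, so that 0 is the usual count for lists this short, here and below. The list holds the phospholipase gene Plcg1, inositol trisphosphate receptors and the STIM and ORAI genes of store-operated calcium entry. Itpr2, a release channel of the endoplasmic reticulum, had the widest range, with log2 levels of 11.71, 11.27 and 11.46 in mice 92, 103 and 106. Orai3, a plasma membrane calcium channel gene, followed with 7.19, 7.53 and 7.43. The narrowest ranges were those of Orai1, the main pore gene of store-operated entry, at 8.28, 8.34 and 8.27, and of the calcium sensor gene Stim2 at 10.08, 10.19 and 10.11. The median SD of the list was 0.12.

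Of the calcineurin activators, inhibitors and anchors, 0 varied in limma, and 8 of 11 measured were above background, beside 61.8% of all named genes. The 3 others were Ppp3r2, a regulatory subunit gene known from testis, with log2 levels of 3.78, 3.79 and 3.86, Rcan2, a paralogue of Rcan1, with 5.05, 5.20 and 4.98, and Chp2, a calcineurin B homologue, with 4.64, 5.03 and 4.93. Thus Ppp3r1 was above background and its paralogue Ppp3r2 was not. Calm3, a calmodulin gene, had 11.50, 11.46 and 11.51, and Fkbp1a, which encodes the protein through which tacrolimus inhibits calcineurin, had 9.89, 9.95 and 9.93. Wider ranges were seen for Chp1, at 10.17, 10.13 and 9.82, and for the anchoring protein gene Akap5, at 6.64, 6.88 and 7.00.

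All 10 NFAT kinase genes were above background, beside 61.8% of all named genes, and 0 varied in limma, with a median SD of 0.12. Mouse 103 was lowest for 7 of them (6 after quantile or cyclic loess normalisation), beside 29.2% of all genes above background, and mouse 92 highest for 6, beside 38.5%. Csnk1a1, a casein kinase 1 gene, measured 11.99, 11.59 and 11.77 on the log2 scale in mouse 92, 103 and 106, and the stress kinase gene Mapk8 had 9.30, 8.97 and 9.06. Mapk9, its close relative, had 9.39, 9.25 and 9.32, and Csnk1d had 10.20, 10.05 and 10.04. The median deviation of the kinases was 0.09 in mouse 92 and -0.09 in mouse 103.

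Among 6 measured genes of NFAT transport and scaffolding, 4 were above background, near the 61.8% of all named genes, and 0 varied in limma. The nuclear export receptor gene Xpo1 had log2 levels of 10.71, 10.49 and 10.44, the import receptor gene Kpnb1 11.21, 10.96 and 11.29, the scaffold gene Iqgap1 10.48, 10.66 and 10.80, and Homer3, whose protein can bind NFAT, 8.28, 8.32 and 8.46. The averaged levels of Homer2 (4.74, 4.94 and 5.07) and Lrrk2 (5.42, 5.98 and 5.61) were not above background. Each of these genes has 2 probe sets that disagree, and with the brighter probe set both genes passed.

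Known NFAT partners and targets were above background in 7 of 11 cases, near the share of all named genes. With background at the 99th percentile the number was 5, and Fos and Jun no longer passed. Over all named genes, those above background on at least 1 array also fell, from 13314 to 10238. In limma 0 of the 8 genes tested varied. The cytokine genes Il2 (4.46, 4.68 and 4.58), Il4 (5.42, 5.79 and 5.75) and Ifng (5.73, 5.70 and 5.40) were not above background on any array, and Fasl, a death ligand gene, passed in mouse 103 only (5.72, 6.20 and 5.88). The nuclear receptor gene Nr4a1, a readout of antigen receptor signals, had log2 levels of 10.36, 10.38 and 10.42. Fos, a partner of JUN in AP-1, had 6.84, 6.87 and 6.80, and Tnf had 7.40, 7.57 and 7.74. Jun spread most, at 6.88, 7.33 and 6.35 in mice 92, 103 and 106, a range of 1.97-fold. It had an unadjusted p of 0.00535 and did not pass after adjustment (adjusted p = 0.457, limma).

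Osmotic targets of NFAT5 were above background in 4 of 5 measured cases, beside 61.8% of all named genes, and 0 varied in limma. The inositol transporter gene Slc5a3 measured 8.63, 8.47 and 8.84 on the log2 scale in mouse 92, 103 and 106, the amino acid transporter gene Slc38a2 12.53, 12.27 and 12.22, the taurine transporter gene Slc6a6 9.54, 9.36 and 9.56, and the chaperone gene Hspa4l 9.87, 9.78 and 9.97. The betaine transporter gene Slc6a12 had 5.75, 5.80 and 5.95 and was not above background. Of the 4 genes above background, 3 were lowest in mouse 103 (2 after quantile normalisation), beside 29.2% of all such genes, and 3 were highest in mouse 106, beside 23.7%. These are orders of 3 arrays and carry no test.

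Markers of other blood cells differed between the mice. The marker lists were chosen with earlier results of these data known, so their counts are a description and not independent support. All 8 measured neutrophil markers were lowest in mouse 92. Their summed log2 level was 50.0 there, against 66.6 in mouse 103 and 64.0 in mouse 106. In limma 6 of the 8 varied, beside 0.225% of all genes tested. All 7 measured B cell markers were also lowest in mouse 92, with sums of 47.0, 55.3 and 53.1 in mice 92, 103 and 106, and 1 varied. Mouse 92 was lowest for 34.5% of all genes above background, and for 7853 of all 19938 named genes. Ngp, a neutrophil granule gene, had log2 levels of 6.88, 9.63 and 9.61, and Cd79a, a signalling chain gene of B cells, had 7.12, 8.26 and 8.44. The members above background that were lowest in mouse 92 were Ppp3cc, Nfatc1 and Nfatc2. For Ppp3cc mouse 92 lay 0.40 below mouse 103, and for Nfatc1 and Nfatc2 it lay 0.25 and 0.35 below mouse 106. Nfatc1 and Nfatc2 are also known from B cells. Both were highest in mouse 106, as was 1 of the 7 B cell markers, and the other 6 were highest in mouse 103. The part of other cells in these values was not tested.

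**Figure D4:**
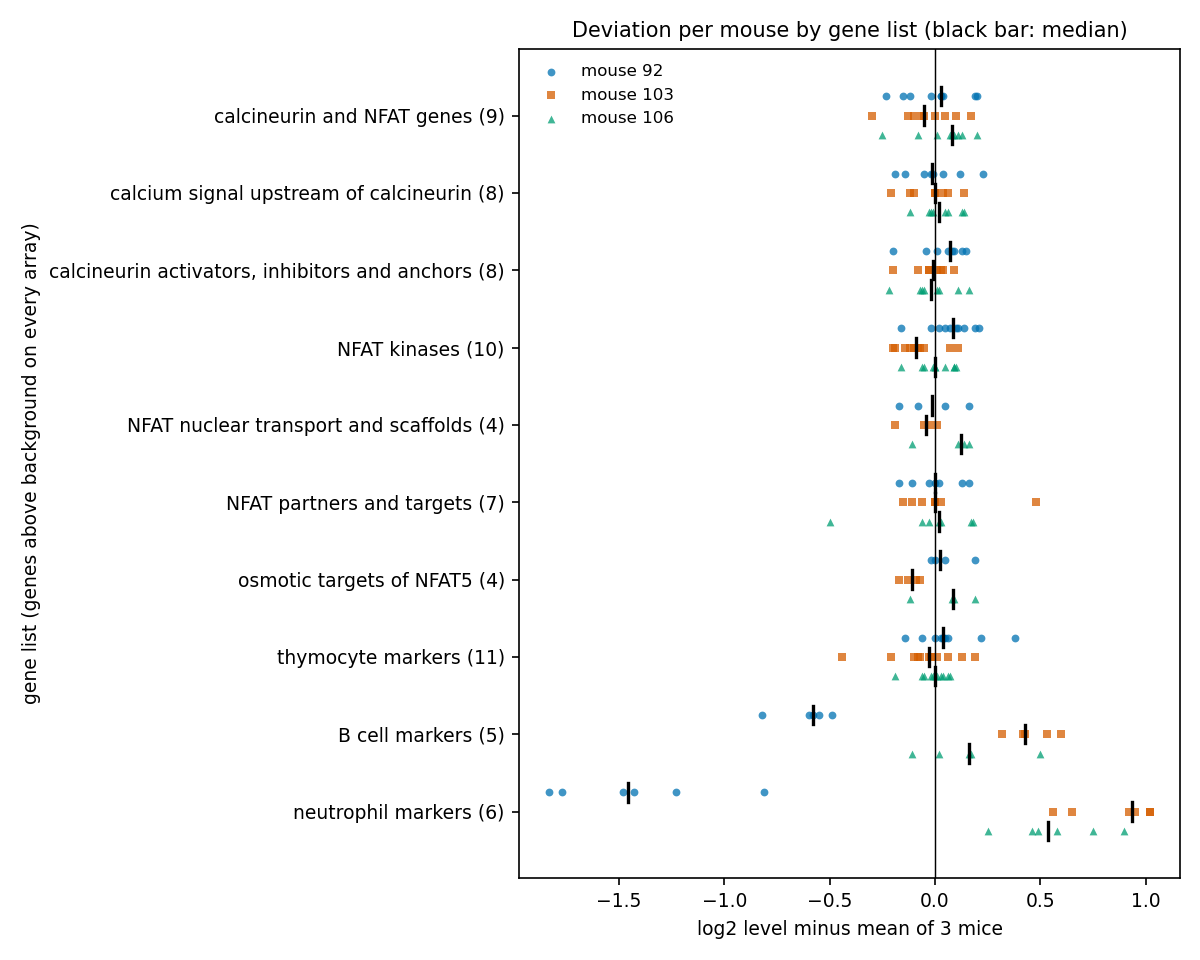
Deviation of each gene from its mean over 3 mice on the log2 scale (x axis), by gene list (y axis, with the number of genes above background on every array), for mice 92, 103 and 106 as coloured symbols and with the median as a black bar. The calcineurin and NFAT genes and the 6 pathway lists sit near 0, with Jun the widest, whereas neutrophil and B cell markers are low in mouse 92.

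Per gene, the remaining lists differed less between mice than the neutrophil list, whose mean log2 level was 6.25, 8.32 and 8.01. In the same order of mice (92, 103, 106), that mean was 6.72, 7.90 and 7.58 for B cell markers. For erythroid markers it was 6.59, 7.49 and 7.21. Macrophage and dendritic cell markers had summed log2 levels of 65.3, 70.7 and 67.1 over 9 genes in mice 92, 103 and 106. Erythroid markers summed to 33.0, 37.5 and 36.1 over 5 genes. The macrophage and dendritic cell list had 0 varying genes in limma and the erythroid list 1, beside 0.225% of all genes tested. Thymic epithelial markers summed to 53.1, 54.9 and 53.6 and fibroblast and endothelial markers to 55.2, 56.1 and 55.3, over 8 genes each, with 0 varying. Thymocyte markers summed to 132.9, 131.6 and 132.1 over 11 genes, with 0 varying. Mouse 92 was highest for 8 of these 11, beside 38.5% of all genes above background.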

How the data were processed

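Affymetrix Expression Console made the values, per the submitters' processing notes; its version, background correction, summarisation and normalisation are not stated in the labels. The values deposited by the authors are log2 levels of 35557 probe sets for 3 arrays, a scale inferred from the values. Of these probe sets, 21789 had 1 gene symbol in the platform annotation, 1621 had several and 12147 were not listed. Probe sets of a gene were averaged. Spread between mice was tested in R 4.3.3 with limma 3.58.1 (intercept fit, eBayes with a trend and without a robust prior) on 13314 genes above background on at least 1 array. Each variance over its prior was an upper-tail F ratio with 2 and 10.4 degrees of freedom, Benjamini-Hochberg adjusted, with a threshold of 0.05. Promoter windows are RefSeq's, of GRCm38.p6.

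The members and lists were chosen with earlier results of these data known. Named were all members, and of each pathway list the genes not above background, the 2 with the widest and the 2 with the narrowest range; of marker lists, at most 3 genes. Of 115 listed symbols other than the members, 107 were measured. Alternatives were 3 normalisations, leaving out each mouse, the brightest probe set, other background rules and other priors.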

Additional observations from a re-analysis of the deposited data

How the results depend on the processing

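The count of 9 members above background was the same under the 3 normalisations, the other background rules and with each mouse left out, and the count of 0 varying members under these and the other priors. Leaving out a mouse, or asking for 1 array only, could not change the first count, since each member passed on every array or on none. The choice of probe set cannot change a member, since each has 1. After renormalisation the level of a member moved by at most 0.08 on any array. Means moved by less than the SD between mice in 30 of 30 cases. That says little, since such normalisations draw arrays toward their common average and so nearly keep the mean of a gene. With background at the 99th percentile, activators, inhibitors and anchors above it fell from 8 to 7, without Akap5, and partners and targets from 7 to 5. Over all named genes, those above background on at least 1 array fell from 13314 to 10238. The number of varying genes among all genes was less stable than these: 30 as reported, 18 after quantile normalisation, 18 after cyclic loess normalisation, 19 with background at the 99th percentile, and between 48 and 84 with 1 mouse left out. With a robust prior limma called 44 genes when every gene had the prior degrees of freedom of most genes, and 0 with per-gene ones, where 600 genes had an unadjusted p under 0.05. No paired analysis was possible because the labels give 1 group. Signals near background limit Nfatc4, and 3 arrays limit every spread.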

Other observations

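Ppp3cb and Ppp3cc, catalytic subunit genes of the same phosphatase, ran in opposite order over the mice, a pair singled out after its values were seen. The log2 level of Ppp3cb minus that of Ppp3cc was 3.23 in mouse 92, 2.33 in mouse 103 and 2.84 in mouse 106, a range of 0.90, and 3.20, 2.35 and 2.84 after quantile normalisation. Among the other pairs of catalytic subunit genes the range was 0.53 for Ppp3ca and Ppp3cc and 0.37 for Ppp3ca and Ppp3cb, and between pairs of NFAT genes above background it was 0.13 to 0.37. The size of such a difference depends on the probes of the genes, so its change over arrays is given and not its level. The change was not tested.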
